A study of Saccharomyces cerevisiae with 6 samples.

Results

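The genes described here encode the enzymes of the tricarboxylic acid (TCA) cycle, the glyoxylate cycle, the pyruvate dehydrogenase complex and pyruvate carboxylase of budding yeast. They were chosen by systematic name from the list of cycle enzymes, and 30 such genes were found among the 5913 genes of the table. All 30 passed the filter on low values, and 0 lie on chromosome VIII, where the median log2 fold change over 275 tested genes was 0.64. RNA-seq compared *not4Δ* cells of the BY4741 background (MATa, *his3Δ1 leu2Δ0 met15Δ0 ura3Δ0*) expressing Not4WT with the same cells expressing Not4RRM, which carries alanine at a glycine and a phenylalanine of the RNA recognition motif and at a cysteine of the C3H1 domain. There were 3 cultures of each, grown in glucose medium with glutamic acid and without ammonium sulfate or uracil. The groups thus share the deletion, the auxotrophies and the medium. Both proteins carry a C-terminal FLAG tag and were expressed from the *ADH1* promoter on a centromeric *URA3* plasmid, and no cells with chromosomal *NOT4* are among the samples. No label says whether the cultures began from separate transformants, so the spread between samples may in part be technical.

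In the TCA cycle, acetyl-CoA made from pyruvate by the pyruvate dehydrogenase complex is joined to oxaloacetate and oxidised in the mitochondrial matrix, which supplies NADH, reduced ubiquinone and precursors for amino acids. The glyoxylate cycle bypasses the steps that release carbon dioxide and lets yeast grow on ethanol or acetate, while pyruvate carboxylase refills oxaloacetate in the cytosol. In glucose-grown yeast most of these genes are under glucose repression, the Hap2/3/4/5 complex activates many genes of respiration, Rtg1/Rtg3 activate *CIT2* and the early cycle steps when mitochondria are impaired, and Cat8 and Sip4 activate the glyoxylate genes when glucose runs out.

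The pair of pyruvate carboxylase genes shows how far single genes can be told apart by reads. *PYC1* and *PYC2* were identical at 85.4% of 3532 aligned coding bases, and their longest identical stretch was 200 bases, printed here because reads within it cannot be assigned to either gene. Each line gives the coding strand of the R64 assembly with the identical bases in capitals and 12 bases on either side in lower case. The first is within *PYC1* at chrVII:385688-385911 on the forward strand and the second within *PYC2* at chrII:661531-661754 on the reverse strand, both inside the only coding exon.
PYC1: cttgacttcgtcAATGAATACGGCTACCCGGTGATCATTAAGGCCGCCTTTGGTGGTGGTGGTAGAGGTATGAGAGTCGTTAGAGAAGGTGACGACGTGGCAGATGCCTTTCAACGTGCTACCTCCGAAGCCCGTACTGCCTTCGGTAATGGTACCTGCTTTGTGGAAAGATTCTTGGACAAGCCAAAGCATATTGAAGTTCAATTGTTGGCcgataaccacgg
PYC2: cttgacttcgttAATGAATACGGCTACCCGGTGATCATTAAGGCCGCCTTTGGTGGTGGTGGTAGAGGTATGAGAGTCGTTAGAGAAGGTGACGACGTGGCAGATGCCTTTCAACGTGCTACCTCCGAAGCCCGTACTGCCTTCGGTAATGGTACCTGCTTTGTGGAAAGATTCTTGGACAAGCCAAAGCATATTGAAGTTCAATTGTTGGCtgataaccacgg
The other isozymes were less alike. *CIT1* and *CIT2* were identical at 73.8% of aligned bases with a longest shared stretch of 21 bases, *IDP1* and *IDP2* at 69.8% with 23 bases, and *MDH1* and *MDH2* at 65.7% with 14 bases. Values of *PYC1* and *PYC2* are therefore uncertain as separate genes, and those of the other isozymes less so.

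The values are read counts that the authors scaled to the sample of lowest coverage and rounded, so that the 6 samples sum to 14881818 to 14881884 and their depth before scaling is unknown. They were divided here by TMM factors, which are scaling factors from trimmed log ratios between samples and ran from 0.929 to 1.083, and the result is called the normalised value. Differences were tested on log2(normalised value + 1) with limma over 5805 genes. A gene was called where its p, adjusted over those genes by the method of Benjamini and Hochberg, was under 0.05 and its change was 1.5-fold or more. SE stands for the standard error of a log2 fold change. On this scale changes of genes with low values are understated. By this rule 0 genes of the whole table were called (0%), with 0.072 as the lowest adjusted p, while the unadjusted p was under 0.05 for 926 genes. With sample weights in limma 1061 genes were called, and the steps of the study gave 355. The deposited value of *NOT4* was 8966 to 13057 in Not4WT and 33371 to 40410 in Not4RRM, and that of the plasmid marker *URA3* was 1047 to 1270 and 3990 to 9251, so the groups also differ in the level of the plasmid-borne transcripts. *LEU2* and *MET15*, which the strain lacks, had at most 19 and 26, whereas *HIS3*, of which *his3Δ1* removes only a part, had 805 to 2521. *STE2*, a receptor gene of MATa cells, had 5222 to 12373, and *STE3*, a receptor gene of MATα cells, had 69 to 120. Other markers were less far apart, as the MATa gene *AGA2* had 319 to 5359 and the MATα gene *SAG1* had 208 to 332. The MATa gene *MFA1* had 611 to 12269. The MATa genes *MFA2*, *STE6* and *BAR1* had at least 483, and the MATα genes *MFALPHA1* and *MFALPHA2* at most 181. Not4RRM replicate 1 stood apart from its group. Across the tested genes the median absolute log2 difference was 0.439 to 0.462 between it and the other Not4RRM replicates, 0.135 between those, and 0.219 to 0.238 between Not4WT replicates.

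Most of the cycle genes had lower values in Not4RRM than in Not4WT, but none of the 30 was called, with adjusted p-values from 0.231 to 0.98 in limma. The log2 fold change was below 0 for 24 of the 30, where 45.2% of all tested genes were below 0, and the median was -0.35 for the 30 and 0.05 for all tested genes. In 9 of the 30 every Not4RRM sample was below every Not4WT sample (12.2% of all tested genes), and in 2 every Not4RRM sample was above (12.3%). Those 2, *CIT2* and *CIT3*, overlapped on the deposited values with equal totals. An unadjusted p under 0.05 was found for 5 lower members (6.12% of tested genes) and for 1 higher member (9.84%). With 3 samples against 3, an exact permutation test of a single gene cannot go below 0.1 (two-sided), and each of the 11 members without overlap reached that value. The number with an unadjusted p under 0.05, 6 in both directions together (16% of tested genes), depended on single samples. It was 3 without Not4WT replicate 1 (9.58% of tested genes in that fit), 0 without Not4WT replicate 2 (8.6%) and 6 without Not4WT replicate 3 (18.9%). It was 15 without Not4RRM replicate 1 (29.2%), 2 without Not4RRM replicate 2 (11.1%) and 2 without Not4RRM replicate 3 (9.94%). With equal totals it was 11 (17.4%), and with sample weights 16 (42.9%). With sample weights 6 of the 30 were called, a share of 30 genes near that of all tested genes (18.3%). By size alone, 4 members (*PYC2*, *LAT1*, *KGD1* and *PDB1*) were at least 1.5-fold lower (3.62% of tested genes) and *IDP2* was at least 1.5-fold higher (13.1%). By the steps of the study, which adjust p over the genes already past its p and fold limits and not over all genes, 2 members (*KGD1* and *PYC2*) passed as lower (3.81% of genes) and 0 as higher (2.2%).

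**Figure D1:**
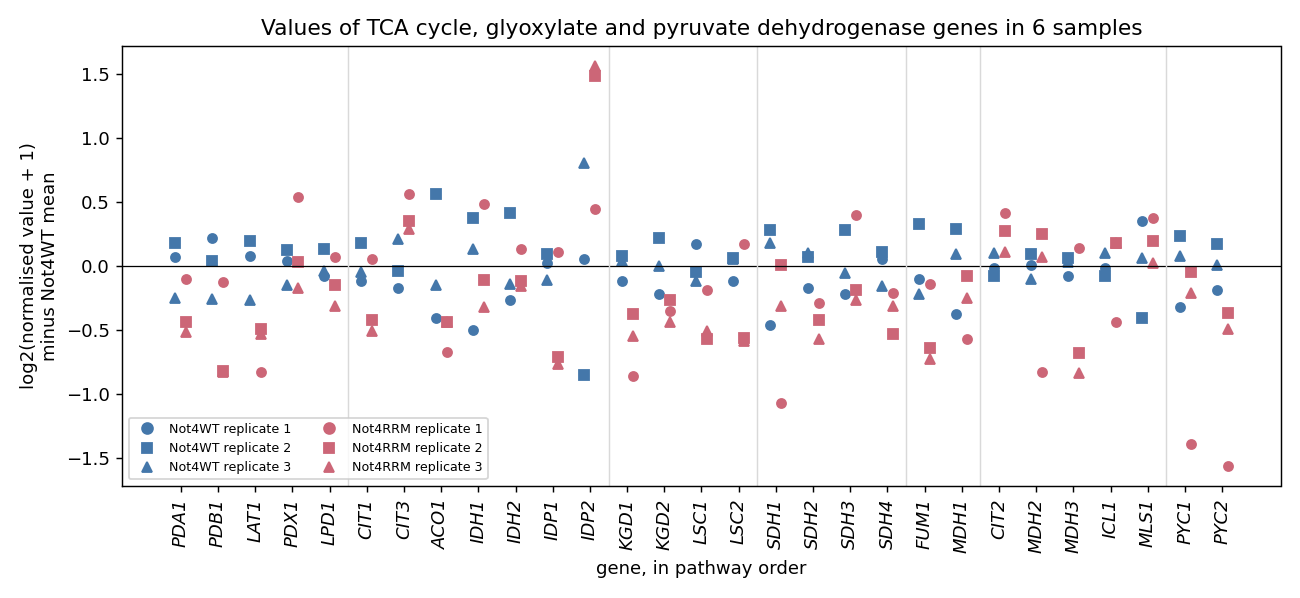
Normalised value of 29 of the genes in each of the 6 samples, as log2(normalised value + 1) minus the Not4WT mean of the gene (vertical axis), with genes in pathway order (horizontal axis). Blue symbols are Not4WT, red symbols are Not4RRM, and the symbol shape is the replicate number. Not4RRM replicates 2 and 3 lie together below all Not4WT samples in 16 of the genes shown, and Not4RRM replicate 1 lies apart from them, lowest for *PYC1* and *PYC2*.

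The sum over the 30 genes was also lower in each Not4RRM sample. On the deposited values the 30 genes held 0.916%, 1.109% and 0.837% of the total in the 3 Not4WT samples and 0.685%, 0.682% and 0.614% in the 3 Not4RRM samples. *PDA1* and *LAT1* made up 30.1% to 35.8% of that sum, and without them the shares were 0.588%, 0.741% and 0.585% against 0.467%, 0.472% and 0.421%. The groups did not overlap in either sum. In bulk RNA a lower share can reflect less of these transcripts or more of others, which these values cannot separate.

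The 30 genes spanned a wide range of levels. Per kb of coding length and over all 6 samples, the normalised value ran from 16260 for *PDA1* to 85.7 for *MLS1*, and 26 of the 30 were above the median of all tested genes, 375.3 per kb. The 6 genes with a log2 fold change above 0 (*PDX1*, *IDH1*, *CIT3*, *CIT2*, *IDP2* and *MLS1*) were among the 13 of lowest level. The cut was placed after the values were seen, just above the first of these 6, so the 17 genes over it are below 0 by that choice. Of the 17, *SDH3* was at -0.02, and *MDH2* was at 0.16 without Not4RRM replicate 1. Of the 6, *PDX1* was at -0.07 and *IDH1* at -0.22 without that sample. At the same cut, 45.0% of the 1174 tested genes at or above the level of the 17 were below 0, and 45.2% of the 4627 tested genes under it.

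**Figure D2:**
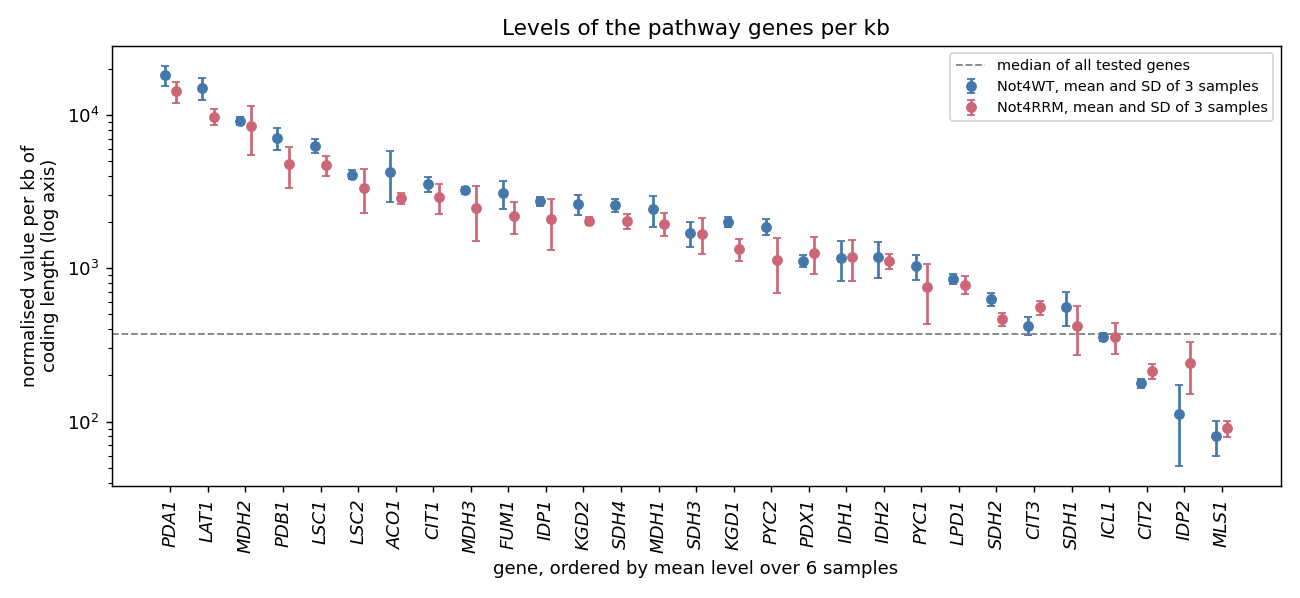
Normalised value per kb of coding length on a log axis (vertical) for 29 of the genes, ordered by their mean over 6 samples (horizontal). Points are means of 3 samples, bars are SD, blue is Not4WT, red is Not4RRM, and the dashed line is the median of all tested genes at 375.3. The 4 genes under that line are *ICL1*, *CIT2*, *IDP2* and *MLS1*.

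The pyruvate dehydrogenase complex joins glycolysis to the cycle. Of its genes, the E2 acetyltransferase gene *LAT1* did not overlap between groups, and the E1 genes *PDA1* and *PDB1* were lower in mean, whereas *PDX1*, which encodes the protein that anchors the E3 subunit, was not. *LAT1* (YNL071W, chrXIV:491523-492971, forward strand of R64) had normalised values of 22871, 24745 and 17899 in Not4WT and 12178, 15409 and 14947 in Not4RRM. The highest Not4RRM sample was below the lowest Not4WT sample, and the log2 fold change was -0.62 (SE 0.23, limma adjusted p = 0.262). *PDA1* (YER178W, chrV:546817-548079, forward strand), the E1 alpha subunit gene and the most abundant member per kb, had 24035, 25868.5 and 19215 in Not4WT and 21287, 16825 and 15988 in Not4RRM. Here Not4RRM replicate 1 lay within the Not4WT range and the other Not4RRM samples under it, and the log2 fold change was -0.35 (SE 0.23, limma adjusted p = 0.459). *PDB1*, for the E1 beta subunit, had a mean of 7816 ± 1266 (SD, n = 3) in Not4WT and 5279 ± 1570 (SD, n = 3) in Not4RRM, again with Not4RRM replicate 1 within the Not4WT range. *PDX1* had 1386 ± 132 (SD, n = 3) and 1550 ± 413.7 (SD, n = 3), with Not4RRM replicate 1 at 2016, above all Not4WT samples. Its log2 fold change of 0.13 became -0.07 without that sample. *LPD1*, whose dihydrolipoamide dehydrogenase serves this complex and the 2-oxoglutarate dehydrogenase complex alike, had 1283 ± 100 (SD, n = 3) and 1176 ± 156.6 (SD, n = 3), with overlapping groups.

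Among the citrate synthases, the enzymes of the first committed step, the main gene was lower in mean in Not4RRM and the isozyme genes of low level were higher, none of them past the test. *CIT1*, for the principal mitochondrial enzyme, had a mean of 5083 ± 565.6 (SD, n = 3) in Not4WT and 4190 ± 915 (SD, n = 3) in Not4RRM. *CIT3* (YPR001W, chrXVI:556377-557837, forward strand), for another mitochondrial enzyme, which also makes methylcitrate, had 545, 597 and 711 in Not4WT and 908, 781 and 750.4 in Not4RRM. All Not4RRM samples were higher than all Not4WT samples, and the log2 fold change was 0.40 (SE 0.17, limma adjusted p = 0.315). On the deposited values with equal totals the groups overlapped, with Not4WT replicate 3 at 718 and Not4RRM replicate 3 at 697. The log2 fold change was then 0.28. *CIT2* (YCR005C, chrIII:120946-122328, reverse strand), for the peroxisomal enzyme of the glyoxylate cycle, had 241, 232 and 263.5 in Not4WT and 327, 296 and 263.8 in Not4RRM. The groups were separated here by the distance between 263.5 and 263.8 only, and the log2 fold change was 0.26 (SE 0.16, limma adjusted p = 0.436). On the deposited values with equal totals it was 0.14. There the groups overlapped, with Not4WT replicate 3 at 266 and Not4RRM replicate 3 at 245.

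Aconitase converts citrate to isocitrate. *ACO1* (YLR304C, chrXII:735212-737548, reverse strand), for the main enzyme of the cycle, had 7194, 14068.5 and 8644 in Not4WT and 6028, 7033 and 7044.5 in Not4RRM. Not4WT replicate 2 was far above the others, and the groups did not overlap. The log2 fold change was -0.52 (SE 0.27, limma adjusted p = 0.386). It was -0.24 without Not4WT replicate 2 and -0.34 with the trend with coding length removed.

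The NAD-dependent isocitrate dehydrogenase genes showed no separation. *IDH1* had 1266 ± 364.5 (SD, n = 3) in Not4WT and 1279 ± 387.7 (SD, n = 3) in Not4RRM, and *IDH2* had 1310 ± 342.3 (SD, n = 3) and 1244 ± 138.3 (SD, n = 3). The 95% intervals of their log2 fold changes, -0.66 to 0.70 and -0.56 to 0.46, both contain 0 and the median of the 30 genes, -0.35. The NADP-dependent isozymes differed in opposite directions in mean. *IDP2* (YLR174W, chrXII:504591-505829, forward strand), for the cytosolic enzyme that supplies NADPH on nonfermentable carbon sources, had 130, 69.2 and 220 in Not4WT and 171, 352 and 372.5 in Not4RRM. Not4RRM replicate 1 lay within the Not4WT range and the other Not4RRM samples above it. Its log2 fold change of 1.16 (SE 0.46, limma adjusted p = 0.287, unadjusted p = 0.0355) was the largest in absolute size among the 30, at a low level, and without Not4WT replicate 2 it was 0.73. *IDP1*, for the mitochondrial enzyme, had 3543 ± 246.5 (SD, n = 3) and 2685 ± 986.2 (SD, n = 3), with Not4RRM replicate 1 at 3822.5, above all Not4WT samples, and replicates 2 and 3 at 2161 and 2071.5, below them.

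The genes of the 2-oxoglutarate dehydrogenase and succinyl-CoA ligase steps that are among the 30 were all lower by mean. *KGD1* (YIL125W, chrIX:122689-125733, forward strand), for the E1 subunit, had 5613, 6450 and 6253 in Not4WT and 3363, 4674 and 4150.5 in Not4RRM. The groups were well apart, and the log2 fold change of -0.60 (SE 0.20, limma adjusted p = 0.231, unadjusted p = 0.0165) had the lowest p of the 30, which ranked 415 among the 5805 tested genes. With the trend with coding length removed it was -0.38 (limma adjusted p = 0.269), and *SDH2*, at -0.54 (limma adjusted p = 0.155), then had the lowest p of the 30. *KGD2* (YDR148C, chrIV:753675-755066, reverse strand), for the E2 subunit, had 3118.5, 4225 and 3642 in Not4WT and 2849, 3016.5 and 2672 in Not4RRM. The groups were separated by a small gap, and the log2 fold change was -0.35 (SE 0.18, limma adjusted p = 0.376). *LSC1* (YOR142W, chrXV:593057-594046, forward strand), for the alpha subunit of succinyl-CoA ligase, had 6967, 6019 and 5719 in Not4WT and 5432.5, 4193 and 4366 in Not4RRM. Its log2 fold change was -0.42 (SE 0.19, limma adjusted p = 0.333), with no overlap. *LSC2*, for the beta subunit, had 5251 ± 355.4 (SD, n = 3) and 4304 ± 1370 (SD, n = 3), with Not4RRM replicate 1 at 5886 above all Not4WT samples.

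Succinate dehydrogenase has a flavoprotein (*SDH1*), an iron-sulfur subunit (*SDH2*) and a pair of membrane anchors (*SDH3*, *SDH4*), and also feeds electrons to ubiquinone as complex II. *SDH2* (YLL041C, chrXII:53131-53931, reverse strand) had 445, 527 and 539 in Not4WT and 411, 375 and 337 in Not4RRM, and *SDH4* (YDR178W, chrIV:817950-818495, forward strand) had 1459.7, 1512 and 1258 in Not4WT and 1215, 973 and 1130.5 in Not4RRM. Neither gene overlapped between groups. The log2 fold changes were -0.43 (SE 0.16, limma adjusted p = 0.279, unadjusted p = 0.0316) for *SDH2* and -0.35 (SE 0.17, limma adjusted p = 0.353) for *SDH4*, which became -0.60 with the length trend removed. *SDH1* had 1076 ± 272.6 (SD, n = 3) and 803.1 ± 282.2 (SD, n = 3), with Not4RRM replicate 1 at 501, under all other samples. *SDH3* had 1009 ± 181.1 (SD, n = 3) and 1005 ± 269.9 (SD, n = 3). The 4 subunit genes thus had 2 without overlap and 2 with it.

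The last steps of the cycle were lower by mean, with overlap. *FUM1*, for fumarase, had 4525 ± 945.4 (SD, n = 3) in Not4WT and 3205 ± 747.6 (SD, n = 3) in Not4RRM, and *MDH1*, for mitochondrial malate dehydrogenase, had 2443 ± 558.6 (SD, n = 3) and 1968 ± 325.5 (SD, n = 3).

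The genes of the glyoxylate cycle other than *CIT2*, and the malate dehydrogenases outside the mitochondria, overlapped between groups. *MLS1* (YNL117W, chrXIV:406358-408022, forward strand), for malate synthase and the lowest member per kb, had 167, 98.8 and 137 in Not4WT and 169.6, 150.0 and 133.5 in Not4RRM. These values overlapped and the log2 fold change was 0.19 (SE 0.23, limma adjusted p = 0.681), which became -0.01 without Not4WT replicate 2. *ICL1*, for isocitrate lyase, had 600.3 ± 37.8 (SD, n = 3) and 599.8 ± 135.7 (SD, n = 3), with a 95% interval of the log2 fold change from -0.50 to 0.45. *MDH2* (YOL126C, chrXV:81787-82920, reverse strand), for cytosolic malate dehydrogenase of gluconeogenesis, had 10441, 10996 and 9695.5 in Not4WT and 5833, 12323 and 10875 in Not4RRM. Not4RRM replicate 1 was below all other samples, which lay between 9695.5 and 12323. The log2 fold change of *MDH2*, -0.17 (SE 0.30, limma adjusted p = 0.795), became 0.16 without that sample. *MDH3*, for the peroxisomal enzyme, had 3349 ± 171.1 (SD, n = 3) and 2548 ± 993.5 (SD, n = 3), with Not4RRM replicate 1 at 3689 above all Not4WT samples and replicates 2 and 3 at 2081.5 and 1873 below them.

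On the log2 scale the pyruvate carboxylase genes had the largest differences of the 30 between Not4RRM replicate 1 and the other Not4RRM samples. *PYC2* (YBR218C, chrII:658707-662249, reverse strand) had 5798, 7427.5 and 6651 in Not4WT and 2234, 5092 and 4695 in Not4RRM. All Not4RRM samples were lower, and replicate 1 was lower than the others by more than the groups differed without it. The log2 fold change was -0.81 (SE 0.33, limma adjusted p = 0.295, unadjusted p = 0.0395), and -0.43 without Not4RRM replicate 1. *PYC1* had 3663 ± 689 (SD, n = 3) and 2666 ± 1128 (SD, n = 3), with Not4RRM replicate 1 at 1381 and the other Not4RRM samples, at 3494 and 3123, within the Not4WT range. To which of the pair the reads of the shared stretch belong was not tested, and the authors' rule for reads that fit both genes is not given in the sources used here.

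**Figure D3:**
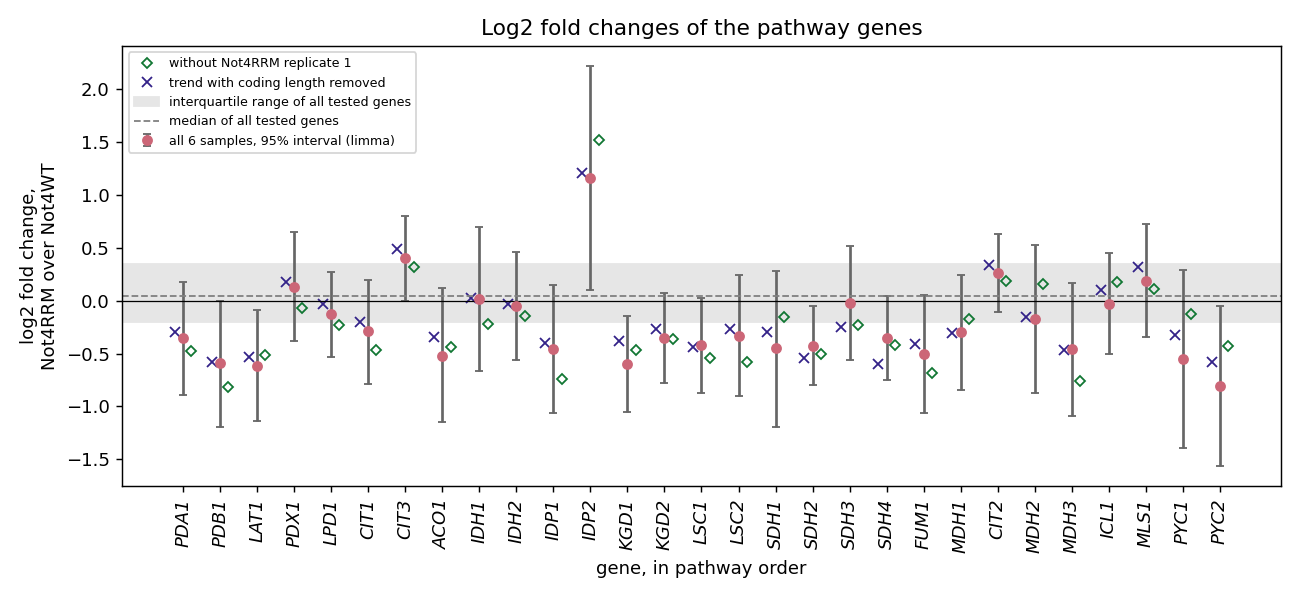
Log2 fold change of Not4RRM over Not4WT (vertical axis) for 29 of the genes in pathway order (horizontal axis). Red points are the limma values over 6 samples with 95% intervals, open green diamonds leave out Not4RRM replicate 1, and blue crosses have the trend with coding length removed. The grey band is the interquartile range of all tested genes and the dashed line their median of 0.05. Of the red points 23 are below 0, and *IDP2* at 1.16 is the highest.

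Ratios between isozymes and between subunits were compared next, since a ratio within a sample does not depend on how samples are scaled. Of 16 ratios, 4 did not overlap between the groups. Each had a two-sided exact permutation p of 0.1, the smallest possible, and a Benjamini-Hochberg adjusted p of 0.4 over the 16. No share without overlap was taken over ratios of other gene pairs. Among single genes, 12.2% of all tested genes were lower and 12.3% were higher without overlap. Both citrate synthase ratios have *CIT1* as their second gene, and some reads of *PYC1* and *PYC2* cannot be assigned to either gene. The log2 ratio of *CIT3* to *CIT1* was -3.09, -3.26 and -2.78 in Not4WT and -2.53, -2.27 and -2.24 in Not4RRM. Per kb, *CIT3* was at 0.12 of *CIT1* in Not4WT and at 0.193 in Not4RRM. The log2 ratio of *CIT2* to *CIT1* was -4.26, -4.62 and -4.21 against -4.00, -3.67 and -3.75. Both citrate synthase ratios were thus higher in all Not4RRM samples, by 0.69 and 0.56 in mean. The log2 ratio of *PDX1* to *PDA1* was -4.08, -4.11 and -3.95 against -3.40, -3.58 and -3.70, a difference of 0.49. That of *PYC2* to *PYC1* was 1.00, 0.80 and 0.80 against 0.69, 0.54 and 0.59, a difference of -0.26. As the groups do not overlap in these 4 ratios, leaving out 1 sample cannot change the sign of their differences. With each sample left out the difference lay between 0.43 and 0.65 for *CIT2* to *CIT1* and between 0.59 and 0.83 for *CIT3* to *CIT1*. It lay between 0.41 and 0.56 for *PDX1* to *PDA1*, and between -0.30 and -0.19 for *PYC2* to *PYC1*. The ratio of *LAT1* to *PDA1* was steady in Not4WT, at -0.07, -0.06 and -0.10, and was -0.13 and -0.10 in Not4RRM replicates 2 and 3, but -0.81 in replicate 1. The ratio of *IDH2* to *IDH1* overlapped, with means of 0.06 ± 0.26 (SD, n = 3) and 0.00 ± 0.26 (SD, n = 3), as did the other 10.

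**Figure D4:**
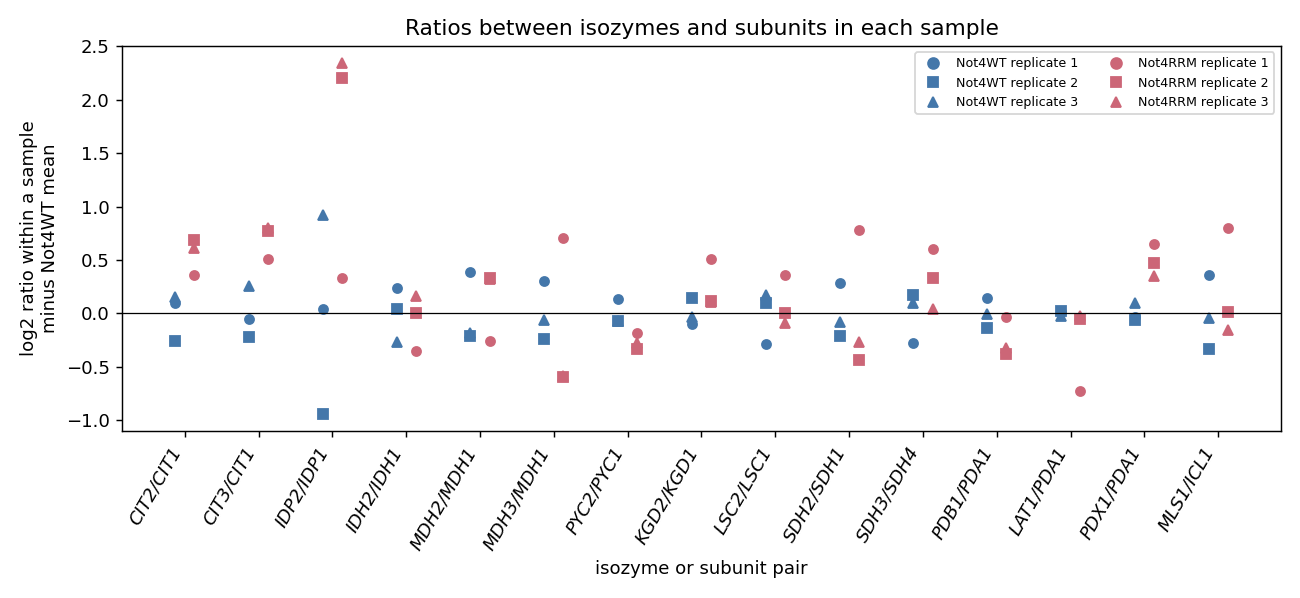
Log2 ratio of the 2 genes named on the horizontal axis within each sample, minus the Not4WT mean of that ratio (vertical axis). Blue symbols are Not4WT, red symbols are Not4RRM, and shapes give the replicate number. The red symbols lie above all blue ones for *CIT2*/*CIT1*, *CIT3*/*CIT1* and *PDX1*/*PDA1* and below all blue ones for *PYC2*/*PYC1*.

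Not4RRM replicate 1 differed from replicates 2 and 3 in a manner that varied from gene to gene. It was the highest Not4RRM sample for 19 of the 30 genes and the lowest for 10. On the log2 scale it exceeded the mean of the other Not4RRM samples by 0.90 for *MDH3*, 0.85 for *IDP1*, 0.74 for *LSC2* and 0.70 for *PDB1* and *IDH1*. It was under that mean (differences of -1.26 for *PYC1*, -1.13 for *PYC2*, -1.08 for *IDP2*, -0.99 for *MDH2*, -0.92 for *SDH1* and -0.61 for *ICL1*). Coding length moved with this difference. Across the 30 genes, which share their libraries and are not independent, the deviation of Not4RRM replicate 1 from the Not4WT mean had a Spearman rho of -0.42 with coding length, against 0.17 and 0.09 in Not4RRM replicates 2 and 3, and across all tested genes it was -0.54, -0.17 and -0.18. The part of length in the single values was not tested, and *IDP2* and *MDH2*, at 1239 and 1134 bp, are shorter than the median of 1335 bp.

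**Figure D5:**
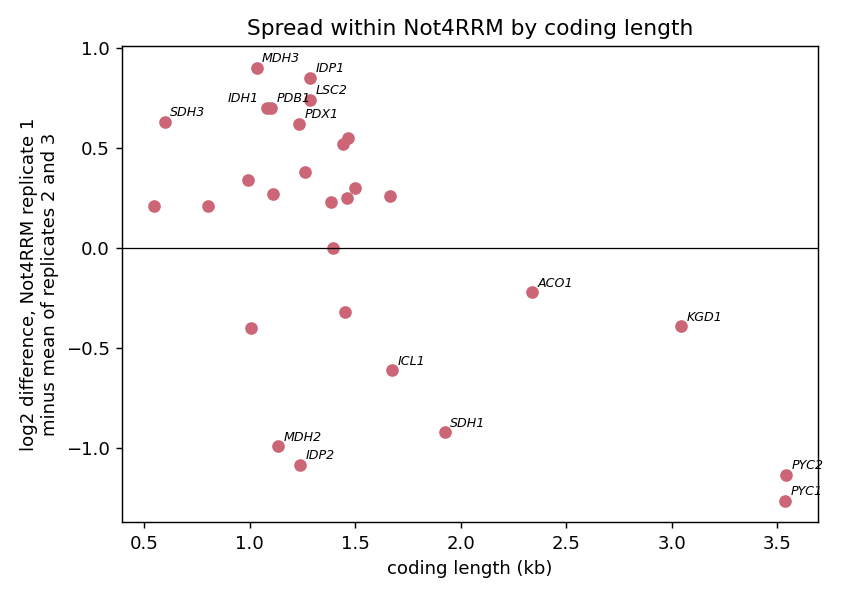
Difference on the log2 scale between Not4RRM replicate 1 and the mean of Not4RRM replicates 2 and 3 (vertical axis) against coding length in kb (horizontal axis), with 1 point for each of 29 genes. *PYC1* and *PYC2* are at -1.26 and -1.13, and *MDH3* is the highest at 0.90.

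Without Not4RRM replicate 1 the remaining Not4RRM samples were below all Not4WT samples in 17 of the 30 genes (25.3% of all tested genes in that fit) and above them in 4 (27.3%), namely *CIT2*, *CIT3*, *ICL1* and *IDP2*. In that fit 3 of the 30 were called, all lower, where 2.26% of tested genes were called lower and 3.92% higher. These were *MDH3* with a log2 fold change of -0.76 (limma adjusted p = 0.0252), *IDP1* with -0.74 (limma adjusted p = 0.0268) and *PDB1* with -0.82 (limma adjusted p = 0.0405), and they were named after their values were seen. The median over the 30 was -0.39, against 0.02 for all tested genes. Not4WT replicate 2 also mattered, as it was the highest Not4WT sample in 22 of the 30 genes. Without it the median over the 30 was -0.26, against 0.02 for all tested genes, and 0 of the 30 had an unadjusted p under 0.05 in limma. With the trend with coding length removed from each sample, the median was -0.28, against 0.08 for all tested genes, 23 of the 30 were below 0 (41.6% of tested genes), 7 were lower at an unadjusted p under 0.05 (5.45%) and 7 were lower without overlap (9.45%).

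Other genes of the pathway, from lists chosen with earlier results of these data known, differed from list to list. Over all tested genes, 6.12% were lower and 9.84% higher at an unadjusted p under 0.05 in limma, and 45.2% had a log2 fold change below 0. Below 0 were 6 of 14 regulators, 7 of 17 accessory genes, 7 of 12 carriers and 12 of 16 paralogs and bypass enzymes. Of 14 regulators, 1 was lower and 0 were higher at an unadjusted p under 0.05, and their median was 0.01 on the log2 scale. The lower one was *HAP2*, a DNA-binding subunit of the Hap2/3/4/5 complex, with normalised values of 652, 622 and 623 in Not4WT and 465, 530.1 and 455 in Not4RRM (log2 fold change -0.39, limma adjusted p = 0.277). *HAP4*, the activating subunit that is limiting in glucose, had 868, 1048 and 1197.5 in Not4WT and 742, 1335 and 1339 in Not4RRM (log2 fold change 0.09, limma adjusted p = 0.878). *RTG3* and *CAT8* had log2 fold changes of 0.00 and 0.12, with overlapping groups. Of 17 accessory genes for regulation, lipoylation, assembly and pyruvate import, 2 were higher and 0 lower at that p. *MPC2*, for a subunit of the mitochondrial pyruvate carrier, had 369, 490.2 and 717 in Not4WT and 1476, 1173 and 1310.3 in Not4RRM, a log2 fold change of 1.37 (SE 0.25, limma adjusted p = 0.106). It lies on chromosome VIII, whose median is given above. Its partner *MPC1*, which is on chromosome VII and was named after its values were seen, had 239, 113 and 288.2 in Not4WT and 317, 444 and 516 in Not4RRM, a log2 fold change of 1.07 (SE 0.36, limma adjusted p = 0.24). All Not4RRM samples of both carrier genes were above all Not4WT samples, and *MPC3*, which takes the place of *MPC2* in respiring cells and was also named after its values were seen, overlapped with a log2 fold change of 0.09.

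Of 16 paralogs and bypass enzymes, 3 were lower and 1 higher at an unadjusted p under 0.05. Their median was -0.17, and 12 of the 16 were below 0, the same direction as most of the 30 cycle genes. The largest of these were *IDP3*, for the peroxisomal isocitrate dehydrogenase, with a log2 fold change of 0.83 (limma adjusted p = 0.179), and *FBP1*, for fructose-1,6-bisphosphatase, with -0.51 (limma adjusted p = 0.267). Of 12 mitochondrial and shuttle carriers, 0 reached that p. The 37 genes of the respiratory chain and ATP synthase had a median of 0.13 with 15 below 0, beside the 24 of 30 below 0 among the cycle genes. They are shorter, with a median coding length of 444 bp against 1335 bp, and with the length trend removed their median was -0.11. At that p 1 was lower, *CYT1* for cytochrome c1 with -0.71 (limma adjusted p = 0.234), and 1 higher, *QCR8* with 1.01 (limma adjusted p = 0.296). The difference between these lists was not tested.

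The windows upstream of the cycle genes were searched for the motifs of their known regulators, from 250 bases before the start codon to 50 bases after its first base, on both strands of R64. CCAAT, the core bound by Hap2/3/4/5, was in 19 of the 30 windows (63.3%) and in 43.3% of the 6007 windows of all nuclear genes. GTCAC, bound by Rtg1/Rtg3, was in 10 (33.3%) and in 26.5% of all, and the core of the carbon source response element, bound by Cat8 and Sip4, was in 2 (6.7%) and in 10.2% of all. Of the 11 genes without overlap, 6 had CCAAT before the start codon. The share of all genes with a match before the start codon only was not taken. The bases around the match in these 6 are printed, each on the coding strand with the CCAAT motif or its complement ATTGG in capitals.
ACO1: aaccatcaaacctCCAATcgctgccggttt
SDH2: aaggcggcctcgcATTGGcccaattagctc
SDH4: cataagcattgagCCAATcgctgctgtttt
PYC2: tttgatttttttgCCAATtactatattgca
CIT2: acattcgtatgaaATTGGtgacgttaatct
CIT3: acagaaaaataaaATTGGggaagtgacaca
They are at chrXII:737739-737768, chrXII:54075-54104, chrIV:817704-817733, chrII:662306-662335, chrIII:122512-122541 and chrXVI:556130-556159 in this order. On the deposited values with equal totals *CIT2* and *CIT3* overlapped between groups. By the normalised values above, the first 4 genes were lower and the last 2 higher in Not4RRM, *CIT2* only by 263.8 against 263.5. The 6 genes were picked by these same values, and a relation between the motif and the direction was not tested. In *SDH2* a further CCAAT, in lower case, is separated from the ATTGG by 1 base. In *CIT2* the complement of GTCAC begins on the last base of ATTGG, and in *CIT3* it lies 4 bases beyond it. A match is a description of the letters only.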

How the data were processed

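RNA-seq values of 6 samples were used, 3 Not4WT and 3 Not4RRM, grouped by their titles. The authors trimmed Ion Torrent Proton reads, aligned them to the S288C transcriptome (R64) with STAR, counted reads per transcript and scaled every sample to the lowest coverage. Rounding made them whole numbers, so what the authors deposited is a score derived from counts and was not tested as counts. Depth before scaling, the aligner's version and the handling of reads that match several genes are not given in the sources used here, so only the spread between samples is used as error. The labels and the paper describe different library kits.

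A nameless row (1 in the table) did not enter any step, and 5907 of 5913 identifiers matched R64. The test took in genes that reached 10 in 3 or more samples and summed to 15 or more. Values were divided by TMM factors (trimming 30% of ratios and 5% of levels, written out in code), log2 transformed with a pseudocount of 1 and fitted in limma 3.58.1 (R 4.3.3), with group as the only term and a prior variance that follows the level. P-values were adjusted over all 5805 tested genes. The code was tested on simulated data. Members were taken by gene name and the other lists by known role, and both were chosen with earlier results of these data known. Full values are given for members without overlap between groups, with an unadjusted p under 0.05, or among the 3 highest or 3 lowest per kb. Alternatives were other scalings, pseudocounts (0.5 and 10) and filters (none and 50), a constant prior variance, sample weights, a replicate block, removal of the length trend by loess (span 0.5), the steps of the study, and each sample left out. Values of 1 member, which is counted among the 30, are not reported here. Coding sequences were aligned with Biopython 1.88.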

Additional observations from a re-analysis of the deposited data

How the results depend on the processing

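The median log2 fold change of the 30 genes was below 0 under all 16 alternatives, but not all of these could move it. The constant prior variance changes only the error, the replicate block is balanced over the groups, and all 30 genes pass each filter. In these the median stays at -0.35 by design. It was -0.48 on the deposited values with equal totals, where the median of all tested genes moved from 0.05 to -0.07, and -0.25 with sample weights, and with each sample left out it lay between -0.39 and -0.26. The number of genes called over the whole table was 0 except for 1061 with sample weights, 3 with the length trend removed, 355 by the steps of the study (an unequal-variance test and 1.5-fold on the deposited values, with adjustment over the genes that pass these limits only) and 0 to 358 with each sample left out, where all 358 came without Not4RRM replicate 1. Of the 30, 6 were called with sample weights, where 18.3% of all tested genes were, and 2 by the steps of the study (*KGD1* and *PYC2*), where 3.81% of genes were lower and 2.20% higher, and 0 to 3 with each sample left out. Genes of the 30 with an unadjusted p under 0.05 numbered 6 (16% of all tested genes), or 11 with equal totals (17.4%), 16 with sample weights (42.9%) and 0 to 15 with each sample left out, the 0 being without Not4WT replicate 2 (8.6%) and the 15 without Not4RRM replicate 1 (29.2%). The 11 genes without overlap became 9 on the deposited values with equal totals, where *CIT2* and *CIT3* overlapped. With the length trend removed there were also 9, of which 7 were lower (9.45% of tested genes). There were 11 to 21 with each sample left out, where fewer samples make a lack of overlap easier to reach. The 21 came without Not4RRM replicate 1, where 25.3% of all tested genes were lower and 27.3% higher without overlap. With all 6 samples and TMM factors these shares were 12.2% and 12.3%. The shares for equal totals, for the other samples left out, and for higher genes with the length trend removed were not taken. *MDH2* was at 0.16 with sample weights and at -0.38 to 0.16 with each sample left out, and *MLS1* at -0.02 and at -0.01 to 0.35. The cause of these reversals was not tested. No ratio moved by more than the larger SD of its groups, but leaving out 1 of 3 samples cannot move a mean that far. Among the ratios with overlap the sign of the difference could change. For *SDH2* to *SDH1* it was 0.03, and -0.35 without Not4RRM replicate 1. For *MLS1* to *ICL1* it was 0.22, and -0.07 without that sample. For *MDH3* to *MDH1* it was -0.16, and 0.06 without Not4RRM replicate 2. The correlations of same-numbered deviations were 0.07, -0.15 and 0.38, and those of differently numbered ones ran from -0.37 to 0.3. The highest was that of the samples numbered 3. These few values cannot settle whether the replicate numbers pair the samples. A replicate block left the number of the 30 with an unadjusted p under 0.05 at 6 and the calls at 0. With depth unknown, counting error could not be given for low members such as *MLS1* and *IDP2*.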
